A study of Mus musculus with 8 samples.

Results

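Nes, St8sia1, Chst2, Cspg4, Htra3 and Aldh1l1 encode a progenitor cell filament, 2 enzymes that build or sulfate glycans, a proteoglycan core, a secreted protease and a folate enzyme. They are the 6 genes described here, of 23413 gene symbols in the table, and were chosen by their normalised counts, which were higher in repopulating than in wild-type microglia. The values of that contrast are given as a description, with no test. Only the bone-marrow macrophages were outside it, so the tests below, each of which sets bone-marrow macrophages against 1 of the chosen groups, share a group with the choice. All 6 genes were in the table and all 6 were among the 11415 genes tested, which reached 10 normalised counts in 2 or more libraries. Cspg4 and Aldh1l1 stayed below 10 in both wild-type libraries and passed through the other groups. Nes, at 6.41 and 10.2 in the wild-type libraries, also needed libraries of the other groups to pass.

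Nestin, the product of Nes, is an intermediate filament protein of dividing progenitor cells that assembles together with vimentin. St8sia1 adds a second sialic acid to the ganglioside GM3 and so makes GD3, a glycolipid of progenitors and of reactive glia. Chst2 is a Golgi sulfotransferase that sulfates N-acetylglucosamine, a step in making keratan sulfate and sulfated selectin ligands. Cspg4 encodes NG2, a membrane-spanning chondroitin sulfate proteoglycan best known from oligodendrocyte precursors and pericytes. Htra3 is a secreted serine protease of the HtrA family that binds growth factors of the TGF-beta family. Aldh1l1 oxidises formyl-tetrahydrofolate and is widely used as a marker of astrocytes. In the brain most of these genes are better known from cells other than microglia, the resident macrophages.

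RNA sequencing covered 8 mouse libraries in 3 groups, wild-type microglia (n = 2, strain label DTR), repopulating microglia (n = 3, strain label DTRmg) and bone-marrow macrophages (n = 3, strain label DTRmg). Per the labels' protocols, tamoxifen (2 mg under the skin) was given on postnatal days 12 and 14, and 500 ng of diphtheria toxin, which kills cells that carry its receptor, was injected into the abdomen 3 times to deplete microglia. The same protocol stands on all 8 samples, the wild-type ones included, and all were sorted by flow cytometry from perfused tissue after a papain digest and a Percoll gradient. The genotype field repeats the group's name, and the labels name neither the promoter behind the toxin receptor, nor age at collection, nor the organ from which bone-marrow macrophages were sorted. Strain label and group cannot be told apart in either comparison with wild type. The macrophage columns were matched to their samples by exclusion. Nothing in the labels says that replicates were separate animals, so p-values measure only how these samples vary, and that variation may be technical.

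Library depth ran from 5918944 to 12476427 reads in genes. The summed level of 10 microglia markers was 423623 to 468366 normalised counts in wild-type microglia, 264615 to 305765 in repopulating microglia and 97499 to 110460 in bone-marrow macrophages. Repopulating replicate 3 stood apart from the other repopulating libraries: over all genes tested, which are no independent points, its log2 levels correlated with theirs at r = 0.938 and 0.918, against 0.979 between replicates 1 and 2. Results are given with and without it where it matters. In bulk samples such as these, fewer cells of a type and less RNA per cell cannot be told apart.

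The 6 genes fell into different orders of groups. All 6 were higher in every repopulating than in every wild-type library, the pattern they were chosen for, which 18.5% of all genes tested showed (22.0% showed the opposite one). By limma 8.61% of all genes were called in that comparison, 4.86% higher and 3.75% lower in repopulating microglia, and nothing is read from the 6 genes against these shares. Against wild-type microglia, 5 of the 6 were called in bone-marrow macrophages (43.5% of all genes), with Nes, Cspg4, Htra3 and St8sia1 higher (4 of 6, beside 21.3%) and Chst2 lower (1 of 6, beside 22.2%). In that comparison the groups did not overlap for any of the 6, 5 being higher (38.0% of all genes) and 1 lower (37.8%). Repopulating microglia differed from bone-marrow macrophages for 4 of the 6 (30.9% of all genes), with Chst2, St8sia1 and Htra3 higher (3 of 6, beside 16.0%) and Nes lower (1 of 6, beside 14.9%). Here 4 of the 6 were higher without overlap (23.7% of all genes), 1 was lower (22.4%) and Cspg4 overlapped. Choosing genes for low wild-type and high repopulating values favours macrophages above wild type and repopulating microglia above macrophages. All settings start from the same choice, so a call in these directions that held under each of them is not independent of it. Nothing is therefore read from the 6 genes against the shares of these comparisons either.

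The number called against wild-type microglia dropped from 5 to 2, Nes and Cspg4, on leaving out bone-marrow macrophage replicate 1 or 3 or either wild-type library. Between repopulating microglia and macrophages it dropped from 4 to 2, Chst2 and St8sia1, on leaving out bone-marrow macrophage replicate 1 or 3 or repopulating replicate 1. Counts over all genes tested fell too. Against wild-type microglia they went from 4960 to 3606 and 3621 without bone-marrow macrophage replicates 1 and 3. Between repopulating microglia and macrophages they went from 3526 to 2222 and 2333 without the same libraries, and to 2688 without repopulating replicate 1. The drops are therefore not read as a trait of the genes described here.

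Nes lies on GRCm38 chromosome 3 (87971078 to 87980451, plus strand). It stood at 6.41 and 10.2 normalised counts in the wild-type libraries, which rest on 6 and 10 reads, and at 60.4, 67.9 and 278.7 in repopulating replicates 1 to 3, from 64, 46 and 242 reads. Bone-marrow macrophages held 473, 387 and 516, from 833, 365 and 585 reads. The 3 groups did not overlap, and bone-marrow macrophages were the highest of them. Repopulating replicate 3 lay 4.61 times above the lowest repopulating library and nearer to the macrophages than to the other repopulating libraries on a log scale. The mean of the repopulating libraries was 16.4 times the wild-type mean, or 7.74 times without replicate 3.

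Against wild-type microglia, Nes was higher in bone-marrow macrophages by 5.65 ± 0.58 on the log2(normalised count + 1) scale (SE), with 459 ± 65.6 normalised counts (SD, n = 3) against 8.29 ± 2.66 (SD, n = 2). The adjusted p of limma, by Benjamini-Hochberg over all genes as for every adjusted p here, was 0.000136. The choice for low wild-type values favours this difference. Repopulating microglia, at 136 ± 124 (SD, n = 3), were lower than bone-marrow macrophages by 2.11 ± 0.52 on the log2 scale (SE; limma adjusted p = 0.0145). That second call ended without bone-marrow macrophage replicate 1 (limma adjusted p = 0.0516), bone-marrow macrophage replicate 3 (0.0589) or repopulating replicate 1 (0.0533); the adjusted p ranged from 8.6e-07 to 0.0589 over the 20 settings, the reported one included.

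Other filament genes were set beside Nes. Vim, encoding vimentin, the partner of nestin, and named here after its values were seen, stood at 1359 and 1197 normalised counts in the wild-type libraries. Repopulating replicates 1 to 3 held 1213, 2325 and 298. Replicate 3, with the most Nes of the repopulating libraries, thus had the least Vim. In bone-marrow macrophages Vim was at 6041 ± 179 (SD, n = 3), above wild type by 2.24 ± 0.67 on the log2 scale (SE; limma adjusted p = 0.0252). Of the 29 intermediate filament and neural progenitor genes listed, 11 were tested, and 1 of these, Lmna, which encodes the nuclear filament lamin A/C, rose in repopulating against wild-type microglia. Lmna went from 28.5 ± 11.5 (SD, n = 2) to 104 ± 41.2 normalised counts (SD, n = 3), a log2 difference of 1.81 ± 0.37 (SE; limma adjusted p = 0.0221). In bone-marrow macrophages Lmna stood at 255 ± 38.2 (SD, n = 3), above wild-type microglia (limma adjusted p = 0.000278) and above repopulating microglia (0.014). The 3 groups did not overlap and had the order seen for Nes, although Lmna was lowest in replicate 3 of the repopulating libraries and Nes highest. Between repopulating and wild-type microglia the Lmna call was lost on leaving out wild-type replicate 1 (adjusted p = 0.201) or 2 (0.0631), bone-marrow macrophage replicate 2 (0.0502) or repopulating replicate 1 (0.0663). The median log2 difference of the 11 genes was -0.06, beside -0.02 over all genes tested. Sox2, a transcription factor of neural stem cells, was read at most 5.34 normalised counts in any library.

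Nestin is known from dividing cells, so genes of the cell cycle were set beside it. Their summed level over 19 genes was 12636 to 15072 in bone-marrow macrophages, 3051 and 3872 in wild-type and 2642 to 3573 in repopulating microglia. All 19 were higher in bone-marrow macrophages than in wild-type microglia and none of the 19 passed between repopulating and wild-type microglia by limma (1 had an unadjusted p under 0.05), edgeR or DESeq2. Repopulating replicate 3, with the highest Nes of its group, had the lowest sum of its group, and 15 of the 19 genes were lowest there. Mki67, the proliferation antigen, and Mcm3 were the 2 genes highest there. Mki67 was at 79.5 in replicate 3 against 2.83 and 1.48 in replicates 1 and 2, and Mcm3 at 606 against 585 and 587. Mki67 was named after its values were seen, and whether cell division has a part in the Nes level was not tested.

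St8sia1 lies on chromosome 6 (142821545 to 142964452, minus strand), and the antisense model Gm7457 that overlaps it was listed at 0 in every library. Its level was 36.3 and 27.5 normalised counts in wild-type microglia, 541, 422 and 267 in repopulating replicates 1 to 3 and 74.4, 49.8 and 68.8 in bone-marrow macrophages. Every repopulating library lay above all others, replicate 3 being the lowest of them. Between repopulating microglia and bone-marrow macrophages the log2 difference was 2.61 ± 0.28 (SE; limma adjusted p = 0.000236), a call that held under every setting tried (0.00196 at the highest). Macrophages were above wild-type microglia by 0.98 ± 0.32 on the log2 scale (SE; limma adjusted p = 0.0333). This smaller difference was no longer called without bone-marrow macrophage replicate 1 (adjusted p = 0.102) or 3 (0.0934), or wild-type replicate 1 (0.0732) or 2 (0.188).

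Chst2 lies on chromosome 9 (95399292 to 95406722, minus strand). It was at 40.6 and 37.6 normalised counts in wild-type microglia, 311, 269 and 275 in repopulating replicates 1 to 3 and 19.3, 28.6 and 23.8 in bone-marrow macrophages. Of the 6 genes it varied least among the repopulating libraries, the highest being 1.16 times the lowest, and replicate 3 did not stand out. Repopulating microglia were above bone-marrow macrophages by 3.53 ± 0.20 on the log2 scale (SE; limma adjusted p = 1.43e-05), with a highest adjusted p of 0.000242 over all settings. Chst2 was lower in bone-marrow macrophages than in wild-type microglia, by -0.70 ± 0.22 on the log2 scale (SE; limma adjusted p = 0.0309), opposite to the 4 other genes called there. That call ended without bone-marrow macrophage replicate 1 (adjusted p = 0.102) or 3 (0.0711) and without wild-type replicate 1 (0.142) or 2 (0.095). It also ended with no low-value filter (0.0508), with equal totals (0.0625) and with the replicate number as a block (0.0684).

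**Figure D1:**
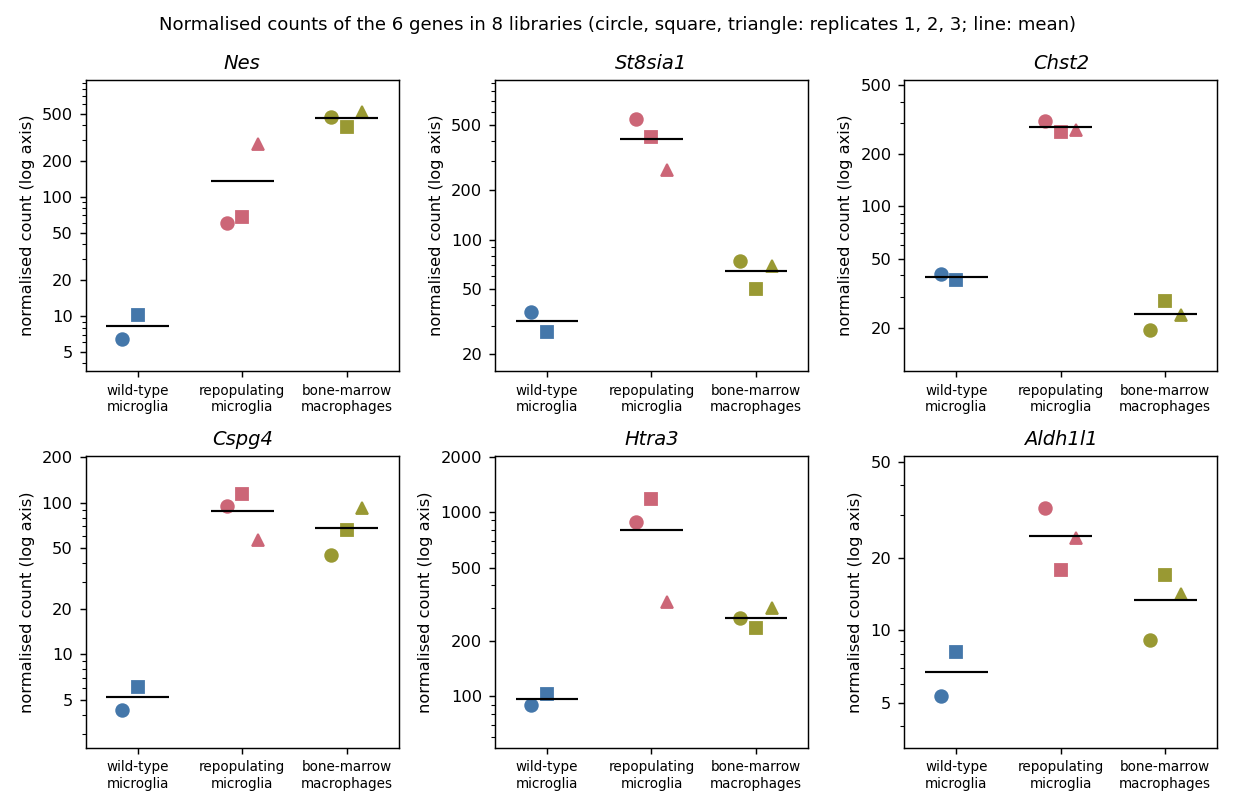
Normalised counts (vertical log axes) of the 6 genes in each library of wild-type microglia, repopulating microglia and bone-marrow macrophages; circles, squares and triangles are replicates 1, 2 and 3 and lines are group means. Repopulating libraries lie above wild-type ones in every panel, which is how the genes were chosen, while bone-marrow macrophages are highest for Nes (387 to 516) and lowest for Chst2 (19.3 to 28.6).

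Windows upstream of the start sites were read for the genes that differ most in where they are high: Nes, highest in bone-marrow macrophages, and St8sia1 and Chst2, highest in repopulating microglia. They come from RefSeq on GRCm38.p6, 5′ to 3′ on the gene's strand, with each GC box in capitals. A GC box is GGGCGG or its reverse complement CCGCCC, which SP and KLF factors can bind. Nes is chr3:87970843-87971077 (235 bases, cut where the annotated gene begins), St8sia1 is chr6:142964453-142964702 and Chst2 is chr9:95407271-95407520 (250 bases each).
Nes: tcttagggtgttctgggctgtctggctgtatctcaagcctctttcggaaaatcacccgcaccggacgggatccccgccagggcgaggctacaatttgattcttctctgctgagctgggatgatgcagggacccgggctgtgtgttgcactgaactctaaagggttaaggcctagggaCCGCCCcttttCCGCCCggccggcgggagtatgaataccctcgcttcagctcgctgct
St8sia1: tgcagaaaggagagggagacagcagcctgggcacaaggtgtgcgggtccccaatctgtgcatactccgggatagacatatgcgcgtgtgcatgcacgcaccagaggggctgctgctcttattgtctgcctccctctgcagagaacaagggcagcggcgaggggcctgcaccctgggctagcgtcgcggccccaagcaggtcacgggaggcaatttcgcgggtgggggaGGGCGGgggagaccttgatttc
Chst2: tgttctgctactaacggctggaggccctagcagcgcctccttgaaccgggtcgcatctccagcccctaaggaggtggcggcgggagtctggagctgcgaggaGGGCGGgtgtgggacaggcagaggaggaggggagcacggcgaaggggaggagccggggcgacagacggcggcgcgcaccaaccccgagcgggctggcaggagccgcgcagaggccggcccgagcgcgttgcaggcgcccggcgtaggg

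All 6 genes had a RefSeq window. In the 250 bases before the start, GC content was 58.8% for Nes, 63.6% for St8sia1 and 72.8% for Chst2, beside a median of 52.4% over 32536 windows of that length. Cspg4 had 60.4%, Aldh1l1 59.6% and Htra3 54.8%. A GC box on either strand was present in 5 of the 6 windows (all but Htra3) and in 33.0% of all windows. The pentamer CCAAT, searched on both strands, was present in St8sia1, Htra3 and Aldh1l1 and in 33.8% of all windows. None of the 6 held TGANTCA (AP-1, 6.73% of all windows), GAGGAAGT (PU.1, 2.45%), CAGGAAGT (ETS factors, 2.70%), TATAAA (12.3%), TGTGGT (RUNX, 14.0%), CACGTG (6.04%) or the NF-kB and MEF2 motifs searched (0.360% and 0.104%). Such matches describe these letters only, and the RefSeq starts behind the windows differ from the GENCODE gene starts for all but St8sia1.

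Gangliosides and sialic acids were followed further through 39 genes outside the 6, of which 33 were tested. Between repopulating and wild-type microglia 3 rose and 2 fell, and their median log2 difference was -0.02, the same as over all genes tested. St8sia6, another sialyltransferase of the St8sia1 family, rose from 38.6 ± 1.35 (SD, n = 2) to 136 ± 28.1 normalised counts (SD, n = 3), by 1.77 ± 0.28 on the log2 scale (SE; limma adjusted p = 0.00954). B4galnt1, which adds N-acetylgalactosamine to GM3 or GD3 and so makes GM2 and GD2, rose by 0.67 ± 0.15 (adjusted p = 0.0321), as did Gm2a, the GM2 activator protein (0.71 ± 0.19, adjusted p = 0.049). St3gal4 and St3gal6, which add sialic acid to galactose, fell by 0.74 and by 0.64 on the log2 scale (limma adjusted p = 0.0187 and 0.0422). St3gal5, which makes GM3, the substrate of St8sia1, did not pass. Its level was 1853 and 1590 normalised counts in the wild-type libraries, and repopulating replicates 1 to 3 held 1350, 891 and 1572 (limma adjusted p = 0.244).

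The same genes were arranged differently in bone-marrow macrophages. St3gal5 stood there at 149 ± 19.6 normalised counts (SD, n = 3), below wild-type microglia by -3.53 ± 0.24 on the log2 scale (SE; limma adjusted p = 2.15e-05). B4galnt1 was at 1454 ± 133 in bone-marrow macrophages against 459 ± 37.5 (SD, n = 2) in wild-type microglia (limma adjusted p = 8.37e-05). In macrophages, then, the gene for making GM3 was lower and B4galnt1 higher than in wild-type microglia. The rise of St8sia6 was no longer called on leaving out wild-type replicate 1 (limma adjusted p = 0.0968) or 2 (0.0758). Of the 33 genes, 9 were called higher and 4 lower once repopulating replicate 3 was left out, and none once either wild-type library was. Leaving out bone-marrow macrophage replicates 1, 2 or 3 left 1, 2 and 2 called, and leaving out repopulating replicate 1 or 2 left 3 each.

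Among 42 genes for sulfotransferases, sulfate donors and sulfatases outside the 6, 31 were tested, 3 rose and 2 fell, and the median log2 difference was 0.11 (all genes -0.02). Chst1, the sulfotransferase that sulfates galactose in keratan sulfate, rose from 229 and 91.5 normalised counts in wild-type microglia to 967, 849 and 753 in repopulating replicates 1 to 3. Its log2 difference was 2.55 ± 0.36 (SE; limma adjusted p = 0.00626), and bone-marrow macrophages stood at 224 ± 52.2 (SD, n = 3). As for Chst2, every repopulating library lay above every macrophage library (log2 difference of Chst1 1.95 ± 0.32, SE, limma adjusted p = 0.00209). Arsb, a lysosomal sulfatase of chondroitin and dermatan sulfate, rose from 7188 ± 305 (SD, n = 2) to 16069.6 ± 3023 (SD, n = 3; limma adjusted p = 0.0092), and Sulf2, an extracellular heparan sulfate sulfatase, by 1.09 ± 0.26 on the log2 scale (SE; adjusted p = 0.0366). Chst7, a chondroitin sulfotransferase, fell from 964 ± 7.31 (SD, n = 2) to 475 ± 98.5 (SD, n = 3), a log2 difference of -1.04 ± 0.18 (SE; limma adjusted p = 0.0137). Gal3st4, a galactose sulfotransferase, fell by 0.84 on the log2 scale (adjusted p = 0.023). Of this list 1 gene was called on leaving out either wild-type library and 3 on leaving out repopulating replicate 1. Leaving out repopulating replicate 3 raised the number to 15, of which 10 were higher.

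Cspg4 lies on chromosome 9 (56865033 to 56899870, plus strand). Its level was 4.27 and 6.1 normalised counts in wild-type microglia, from 4 and 6 reads. Repopulating replicates 1 to 3 held 95.4, 115 and 56.4, and bone-marrow macrophages 45.5, 65.8 and 92.6. Both DTRmg groups lay above the wild-type libraries and overlapped each other. Bone-marrow macrophages were above wild-type microglia by 3.44 ± 0.39 on the log2 scale (SE; limma adjusted p = 0.000261), a call that held under every setting tried (0.00489 at the highest). The choice for low wild-type values favours this difference under every setting, and Cspg4 passed the low-value filter only through the other groups. Between repopulating microglia and bone-marrow macrophages the log2 difference was 0.38, with a 95% interval from -0.42 to 1.18 (limma adjusted p = 0.453), so that neither equal levels nor a difference near 2-fold was outside the interval.

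Markers of other cells that carry NG2 are given beside Cspg4. Of 11 markers of oligodendrocyte precursors, none was tested for lack of reads. Their summed level was 16.3 and 22.4 normalised counts in wild-type microglia, 7.56 to 20.7 in repopulating microglia and 7.39 to 15.9 in bone-marrow macrophages. Gpr17, Cacng4 and Neu4 were at 0 in all 8 libraries, and Pdgfra, the defining growth-factor receptor of these precursors, was at 0 in repopulating replicates 1 and 3 and at 2.95 in replicate 2. The 11 pericyte and mural cell markers summed to 98.3 and 224.7 in wild-type, 39.7 to 135 in repopulating and 11.4 to 18.0 in bone-marrow libraries. Of 6 pericyte markers tested none passed between repopulating and wild-type microglia by limma (0 with an unadjusted p under 0.05), edgeR or DESeq2. On leaving out repopulating replicate 3, limma called the pericyte marker Vtn lower in repopulating microglia (log2 difference -1.83, adjusted p = 0.0213). Both sums were lower in every macrophage library than in either wild-type library, and the part of these cells in the Cspg4 level was not tested.

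Proteoglycan cores and enzymes of chain synthesis outside the 6 numbered 46, of which 30 were tested, 4 rose and 4 fell, with a median log2 difference of 0.01 (all genes -0.02). Sdc3, a heparan sulfate proteoglycan of the syndecan family, rose from 1698 and 1692 normalised counts in wild-type microglia to 8743, 5822 and 5303 in repopulating replicates 1 to 3. Its log2 difference was 1.93 ± 0.21 (SE; limma adjusted p = 0.00212) and stayed past the threshold under every setting tried. Xylt1, the xylosyltransferase that starts chondroitin and heparan sulfate chains, rose from 3.64 ± 0.61 (SD, n = 2) to 29.2 ± 15.7 (SD, n = 3), by 2.58 ± 0.43 on the log2 scale (SE; limma adjusted p = 0.0121). Xylt1 was at 15.1, 26.6 and 46.1 in repopulating replicates 1 to 3 and at 51.8 ± 2.93 (SD, n = 3) in bone-marrow macrophages. Repopulating and macrophage libraries did not overlap, but their difference was not called (log2 -0.94 ± 0.39, SE, limma adjusted p = 0.101). Sdc4, another syndecan, fell from 203 ± 5.42 to 94.4 ± 8.5, by 1.10 on the log2 scale (limma adjusted p = 0.0164). Gpc1, a glypican, was called lower, with 13.9 and 15.3 normalised counts in wild-type microglia and 0.944, 0 and 1.15 in repopulating replicates 1 to 3 (limma adjusted p = 0.0133).

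The calls of Xylt1, Sdc4 and Gpc1 ended without wild-type replicate 1 (limma adjusted p = 0.116, 0.136 and 0.116) or 2 (0.0695, 0.114 and 0.0985). Of the proteoglycan list 1 gene was called without either wild-type library. The count was 4, 4 and 5 on leaving out bone-marrow macrophage replicates 1, 2 and 3, and 5 on leaving out repopulating replicate 1. It was 13, of which 7 were higher, on leaving out repopulating replicate 3. In a fit of only the groups compared, where 78 of all genes were called, Sdc3 was the only gene called of the lists on sialic acid, sulfation, proteoglycans, folate and filaments.

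**Figure D2:**
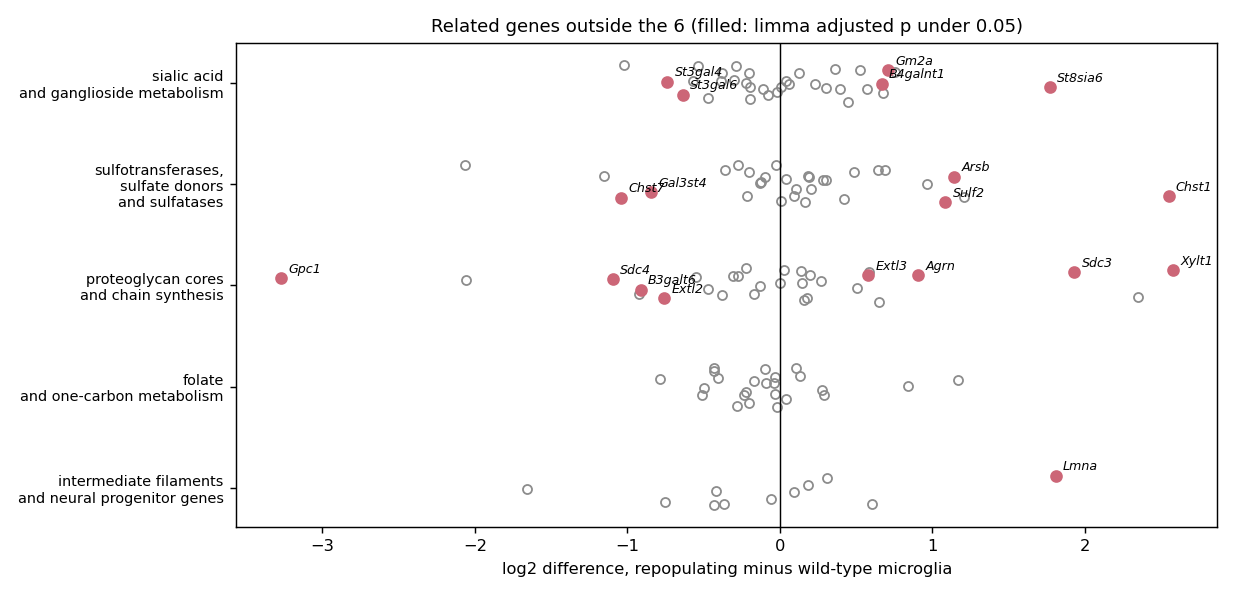
Log2 difference of normalised counts + 1 (repopulating minus wild-type microglia, horizontal axis) for tested genes of 5 lists of related genes, 1 point a gene, with filled and named points past a limma adjusted p of 0.05 and vertical scatter for legibility only. Points of each list lie on both sides of 0, with Chst1 (2.55), Xylt1 (2.58) and Sdc3 (1.93) farthest to the right among those called.

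Htra3 lies on chromosome 5 (35652023 to 35679782, minus strand). It was at 89.8 and 103 normalised counts in the wild-type libraries. Repopulating replicates 1 to 3 held 883, 1179 and 324, and bone-marrow macrophages 265, 234 and 302. Repopulating replicate 3 lay just above the macrophages and well below the other repopulating libraries. The repopulating mean was 8.27 times the wild-type mean, or 10.7 times without replicate 3, and replicate 3 alone was 3.36 times that mean. Bone-marrow macrophages were above wild-type microglia by 1.46 ± 0.45 (SE; limma adjusted p = 0.0293), and repopulating microglia above the macrophages by 1.39 ± 0.40 (adjusted p = 0.0305), both on the log2 scale.

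Both Htra3 calls depended on single libraries. That against wild-type microglia ended without bone-marrow macrophage replicate 1 (limma adjusted p = 0.0699), 2 (0.0575) or 3 (0.0865) and without wild-type replicate 1 (0.142) or 2 (0.1). Between repopulating microglia and macrophages the call was lost under 9 of the 20 settings (adjusted p 1.26e-06 to 0.103). Of those 9, 7 left out 1 library each, namely bone-marrow macrophage replicate 1 (0.0864), 2 (0.0978) or 3 (0.0709), wild-type replicate 1 (0.0515) or 2 (0.0511) and repopulating replicate 1 (0.103) or 2 (0.0693). The related proteases Htra1 and Htra2 did not pass in repopulating against wild-type microglia, at 10.7 ± 9.9 and 278 ± 64.3 normalised counts (SD, n = 3) against 12.4 ± 5.46 and 335 ± 53.0 (SD, n = 2), with limma adjusted p = 0.704 and 0.414. Htra4 had too few reads to be tested.

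Aldh1l1 lies on chromosome 6 (90486427 to 90600203, plus strand) and had the fewest reads of the 6 genes. Gm15756 on the opposite strand and Gm44236 and Gm45901 on its own overlap it and are not listed in the table, so reads from them cannot be told apart from its own. Wild-type libraries held 5.34 and 8.13 normalised counts, from 5 and 8 reads, repopulating replicates 1 to 3 held 32.1, 17.7 and 24.2, from 34, 12 and 21 reads, and bone-marrow macrophages held 9.09, 17.0 and 14.1, from 16 reads each. The groups did not overlap, although repopulating replicate 2 and bone-marrow macrophage replicate 2 were 12 and 16 reads. Neither test with the macrophages passed: against wild type the log2 difference was 0.88 (95% interval -0.08 to 1.83, limma adjusted p = 0.12), and for repopulating microglia against macrophages it was 0.84 (95% interval -0.02 to 1.69, adjusted p = 0.126). Both tests missed the threshold under all 19 settings that kept the gene.

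Aldh1l1 is used to mark astrocytes, so astrocyte markers are given beside it. Their summed level over 13 genes was 1236 and 6610 normalised counts in wild-type microglia, 1525, 288 and 2374 in repopulating replicates 1 to 3 and 127 to 173 in bone-marrow macrophages. Most of it was Slc1a3, a glutamate transporter, with 987 and 6365 in wild-type and 182 to 1909 in repopulating libraries. Without Slc1a3 the other 12 markers summed to 249 and 245 in the wild-type libraries. In repopulating replicates 1 to 3 they summed to 138, 106 and 465, and in macrophages to 110 to 158, so that replicate 3 was the highest library. In replicate 3, 7 of the 13 markers were above both wild-type libraries, against 1 in replicate 1 and 0 in replicate 2. Slc1a2, another glutamate transporter, stood at 137 there against 48.1 and 34.6 in wild type, and Gja1, a gap junction protein, at 44.9 against 5.34 and 12.2. Aldh1l1 was highest in replicate 1, where the sum of the 12 markers, though not each of them, was below wild type. Its level in replicate 3 lay between those of the other repopulating libraries. Of the 9 astrocyte markers tested none passed between repopulating and wild-type microglia by limma (0 with an unadjusted p under 0.05), edgeR or DESeq2. On leaving out repopulating replicate 3, limma called the marker Aldoc lower in repopulating microglia (log2 difference -1.18, adjusted p = 0.00407). Slc1a2 was not called there (-0.72, adjusted p = 0.188). In bone-marrow macrophages 2 of the 9 were lower than in wild-type microglia, the same share as among all genes tested (22.2%). The part of astrocyte RNA in the Aldh1l1 level was not tested.

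Folate and one-carbon enzymes and carriers reported here, outside the 6, numbered 27, of which 24 were tested. None of the 24 was called between repopulating and wild-type microglia by limma (6 had an unadjusted p under 0.05), edgeR or DESeq2, and their median log2 difference was -0.09, beside -0.02 over all genes. On leaving out repopulating replicate 3, 3 were called higher and 4 lower. The highest means over all 8 libraries were those of Slc46a1, a proton-coupled folate carrier, and Ggh, a lysosomal enzyme that shortens folate polyglutamates. Slc46a1 had 1284 ± 25.6 normalised counts in repopulating (SD, n = 3) against 1703 ± 161 in wild-type microglia (SD, n = 2; limma adjusted p = 0.121). Bone-marrow macrophages held 348 ± 45.0 (SD, n = 3), below wild-type microglia by -2.29 ± 0.15 on the log2 scale (SE; limma adjusted p = 1.77e-05). Ggh had 892 ± 372 in repopulating (SD, n = 3) against 759 ± 63.5 in wild-type microglia (SD, n = 2; limma adjusted p = 0.833). Against wild-type microglia 10 of the 24 were higher and 2 lower in bone-marrow macrophages (21.3% and 22.2% of all genes).

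**Figure D3:**
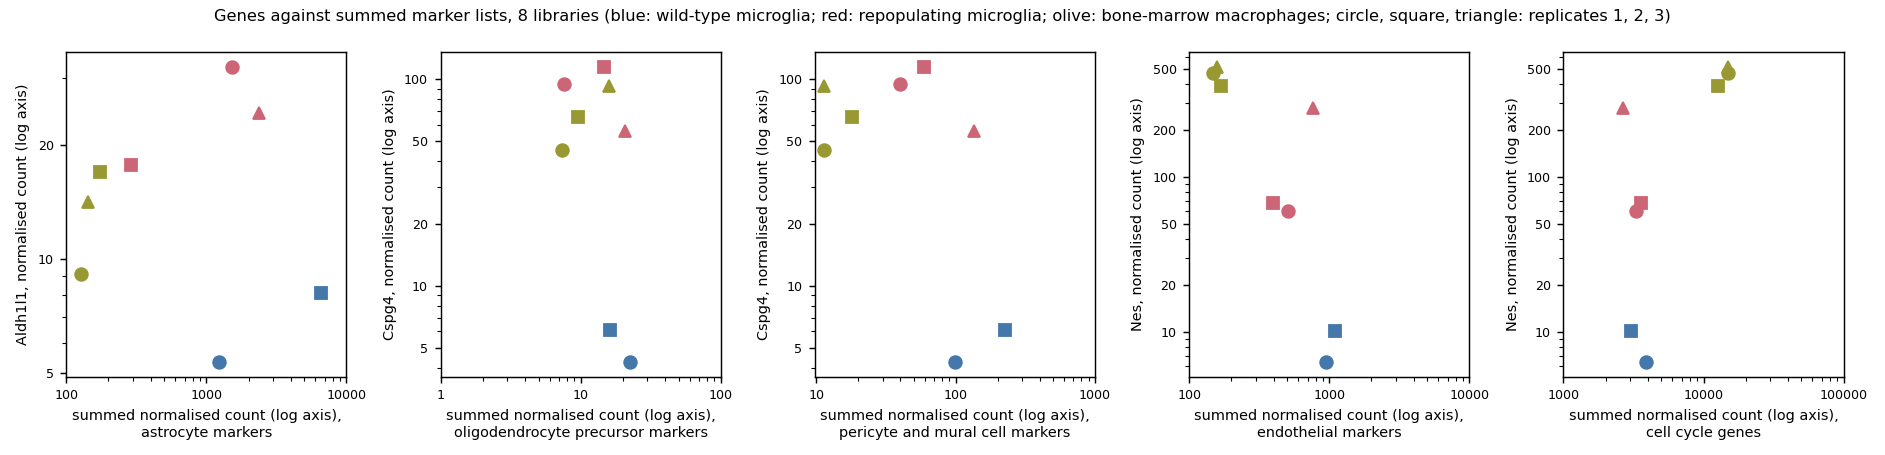
Normalised count of Aldh1l1, Cspg4 or Nes (vertical log axes) against the summed normalised count of a marker list (horizontal log axes) in 8 libraries, with colour for the group and shape for the replicate. Wild-type libraries (blue) lie to the right or in the middle on the astrocyte, precursor, pericyte and endothelial sums and lowest on every vertical axis, and the macrophages (olive) stand apart on the cell cycle sum at 12636 to 15072.

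Remaining lists of other cells moved as follows between the groups. Endothelial cells can also carry Nes. Their markers summed to 953 and 1096 in wild-type, 397 to 761 in repopulating and 147 to 168 in bone-marrow libraries, with Ly6a and Pecam1 the largest in wild type. Without Ly6a the other 10 summed to 455 and 771 in wild type and to 253, 266 and 586 in repopulating replicates 1 to 3. Replicate 3 thus lay between the wild-type libraries. Kdr, the endothelial VEGF receptor, lay above wild type (38.5 and 69.1) in repopulating replicates 1 to 3 (157, 102 and 128), a log2 difference of 1.28 ± 0.45 (SE) that missed the threshold by limma (adjusted p = 0.117) and edgeR (0.0875) and passed it by DESeq2 (0.0303). In macrophages Kdr was at 16.1 ± 7.47 (SD, n = 3). Of 9 endothelial markers tested, limma called 0 higher and 1 lower in repopulating than in wild-type microglia. That was Ly6a, by -1.16 ± 0.30 on the log2 scale (SE; limma adjusted p = 0.0465), a call lost with no filter (0.0585). Pecam1 was lower by -2.57 ± 0.72 (SE), missing the threshold by limma (adjusted p = 0.0627) and passing it by DESeq2 (0.0376). Without repopulating replicate 3, limma called Pecam1 lower (adjusted p = 8.02e-06). Repopulating replicate 3 had the most Nes of its group. It also had the highest sums of its group for the astrocyte, precursor, pericyte, endothelial, neuron and oligodendrocyte lists. The part of these cells in the Nes level was not tested. Neuron markers summed to 34.2 and 57.9, 22.1 to 48.4 and 21.6 to 29.7 in the same order, and oligodendrocyte markers to 1273 and 1410, 1327 to 1616 and 1131 to 1276. Monocyte and neutrophil markers were at 27137 and 29438 in wild-type microglia, 1723 to 5743 in repopulating microglia and 2528 to 2998 in bone-marrow macrophages, and 9 of 10 tested fell between wild-type and repopulating microglia. That list was thus higher in the wild-type libraries than in both others, and its part in the levels of the 6 genes was not tested.

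Levels between genes were compared per kb of annotated exons. In wild-type microglia the order was Htra3 (20.2 and 23.1 normalised counts per kb), Chst2 (5.13 and 5.54), St8sia1 (2.94 and 3.89), Aldh1l1 (1.18 and 1.8), Nes (0.999 and 1.58) and Cspg4 (0.358 and 0.511). Only Aldh1l1 and Nes overlapped among these neighbours. In repopulating microglia Htra3 was again first (72.9 to 265.7 per kb), before St8sia1 (28.6 to 57.9), Chst2 (36.7 to 42.4), Nes (9.42 to 43.4), Cspg4 (4.73 to 9.65) and Aldh1l1 (3.92 to 7.11), and all neighbours after Htra3 overlapped. In bone-marrow macrophages Nes came first (60.3 to 80.4 per kb) and overlapped with Htra3 (52.8 to 67.9). St8sia1 (5.34 to 7.97), Cspg4 (3.81 to 7.76), Chst2 (2.64 to 3.91) and Aldh1l1 (2.01 to 3.76) followed, each overlapping with the next.

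**Figure D4:**
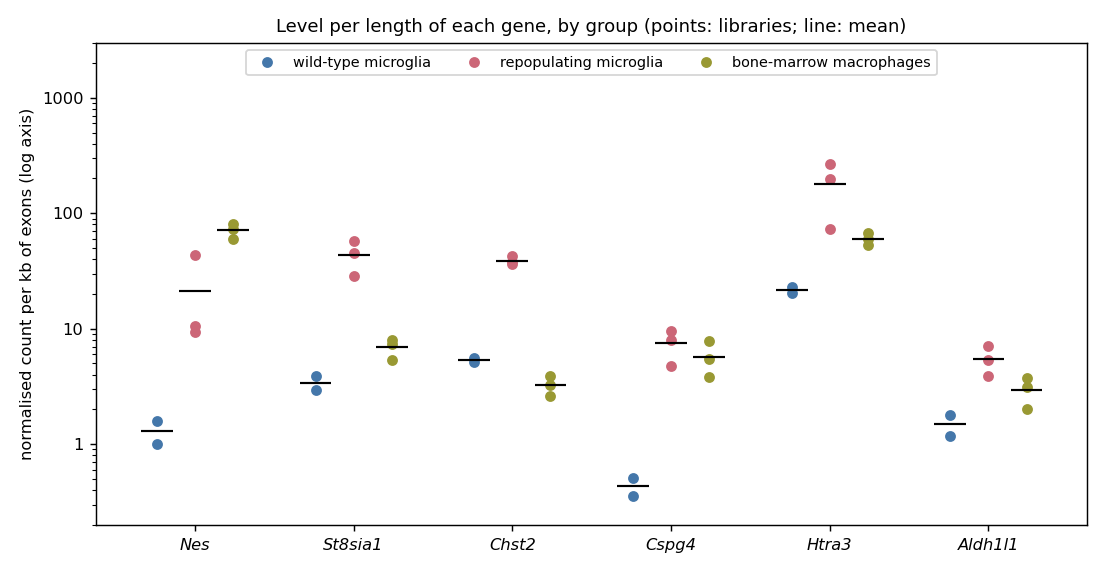
Normalised counts per kb of exons (vertical log axis) of the 6 genes, with libraries as points and group means as lines. Htra3 is the highest of the 6 in both kinds of microglia, and Nes, at 0.999 and 1.58 in wild-type microglia, reaches 60.3 to 80.4 in bone-marrow macrophages.

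Across the 8 libraries, which share their groups and so are not independent, log2 levels of St8sia1 correlated with those of Htra3 at r = 0.918 and of Chst2 at r = 0.884, and Cspg4 with Htra3 at r = 0.865. Nes was the least like the others, with r = -0.139 to Chst2 and 0.225 to St8sia1, and was nearest to Cspg4 (r = 0.768). Among all other tested genes those most like Nes were Hsp90b1, a chaperone of the endoplasmic reticulum (r = 0.9956), Parp1, a DNA repair enzyme (0.9953), Prpf4b, a splicing kinase (0.9940), Hnrnpul2, an RNA-binding protein (0.9925) and Arpc1b, an actin-nucleating subunit (0.9918). Their mean differences between groups were smaller than those of Nes: Arpc1b ran from 1119 in wild-type over 2983 in repopulating to 4660 in bone-marrow libraries on average. Nearest to St8sia1 were Sidt2 (0.9738), Fau (0.9736) and Use1 (0.9694), and to Chst2 Sdf4 (0.9893), Tgif1 (0.9885) and Cd83 (0.9813), a surface protein of activated antigen-presenting cells. Cd83 averaged 2329 normalised counts in wild-type, 4961 in repopulating and 1635 in bone-marrow libraries. For Cspg4 they were Becn1 (0.9908), Rab43 (0.9877) and Hyi (0.9862), for Htra3 Arsb (0.9807), Klrg2 (0.9761) and Polr1c (0.9713), and for Aldh1l1 Dnajc27 (0.9623), Socs7 (0.9580) and Papd7 (0.9547). These values describe likeness over 8 libraries and carry no test.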

How the data were processed

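Sequencing libraries of 8 sorted cell samples were made with the TruSeq RNA kit (version 2) from RNA of integrity above 8, per the labels' protocols. That kit marks no strand, so a gene and its antisense partner cannot be told apart. The submitters' processing notes name mm10, HTSeq, DESeq 1.14.0, TopHat2 2.0.10 and Bowtie2 2.1.0.0, while settings and annotation were not stated. The deposited unit is a signal: read counts per gene that the authors scaled by a factor for each library, judging by the values. Multiples of 1 read gave 100% of values above 0 in every library, within 0.01 reads, if the smallest value is 1 read. No column was left unused.

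Each test used log2(normalised count + 1) in 1 limma 3.58.1 model (R 4.3.3, variance trend) over all 8 libraries, two-sided, with a threshold of 0.05 on the Benjamini-Hochberg adjusted p over the 11415 genes. This scale understates changes of low genes. The fit was tested on simulated data. Alternatives were pseudocounts of 0.5 and 4, no filter, a filter of 30 in 3 libraries, TMM scaling, equal totals, only the groups compared, a replicate block, no variance trend, leaving out each library, and edgeR 4.0.16 and DESeq2 1.42.0 on the recovered reads. Marker sums without the most abundant gene were added after seeing the data.

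Members, lists, motifs and tests were chosen with earlier results of these data known. Named were the 6 genes, up to 4 called genes of each related list by adjusted p, leading or called markers, and the genes most correlated with each member (5 for Nes, 3 for the others). Vim, Sox2, St3gal5, Gm2a, Sulf2, Mki67, Gja1, Kdr, Pecam1, Pdgfra, Gpr17, Cacng4, Neu4 and Htra4 were named with their values known. A gene of the lists is not reported here. Positions and exon unions are from GENCODE vM21 (GRCm38, the same assembly as mm10) and promoter windows from RefSeq (GRCm38.p6). Plots were made in matplotlib 3.10.9.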

Additional observations from a re-analysis of the deposited data

How the results depend on the processing

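Counts of genes called between repopulating and wild-type microglia depended most on the wild-type libraries and on repopulating replicate 3: leaving out 1 library gave 67 (without wild-type replicate 1) to 2958 (without repopulating replicate 3) genes in all. By list the same settings gave 0 to 13 (sialic acid), 1 to 15 (sulfation), 1 to 13 (proteoglycans), 0 to 7 (folate) and 0 to 2 (filaments). A fit of only the groups compared called 78 genes in all, 1 of the proteoglycan list and 0 of the sialic acid, sulfation, folate and filament lists, and DESeq2 called 1625 genes in all and 9 of the sulfation list. The sialic acid list had 3 called with no filter and 3 with no variance trend. The folate list, with 0 called, had 2 called, both lower, with equal totals, which moved the median log2 difference of all genes from -0.02 to -0.12. Leaving out 1 library gave 2867 to 7030 genes called, and 2 to 5 of the 6 genes, between macrophages and wild-type microglia. It gave 2222 to 5348 genes, and 2 to 4 of the 6, between repopulating microglia and macrophages. In the settings that leave 1 wild-type library, that library is assumed to vary like the other groups. The causes of these shifts were not tested.

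Genes whose log2 difference (repopulating minus wild-type) changed sign were uncalled markers, Ggh or Htra1. Equal totals gave -0.0109 for Slc1a2 and -0.094 for Mcm3, and the replicate block -0.1778 and -0.0198. Leaving out 1 library gave ranges of -0.72 to 0.52 (Slc1a2), -0.0794 to 0.11 (Mcm3), -0.0149 to 0.37 (Mcm6), -0.83 to 0.28 (Pdgfrb), -0.11 to 0.0447 (Mbp), -0.31 to 0.11 (Mag), -0.1347 to 0.53 (Ggh) and -1.45 to 0.29 (Htra1). With the replicate block 5 proteoglycan genes were called and 0 of the folate list. Shared numbers are not stated to pair samples: 2 of 7 same-numbered pairs correlated above 0.1 (r = -0.24 to 0.244), and 1 of 3 macrophage libraries correlated best with the repopulating library of its number. These correlations are of deviations from group means, which are mirror images for the 2 wild-type libraries. Pairs with a wild-type library therefore cannot decide whether numbers pair samples. For the 9 calls on the 6 genes, 143 of 171 values under alternatives kept the call, 28 lost it and none reversed. Against wild-type microglia, the log2 difference of Cspg4 in repopulating microglia was 3.29 with a pseudocount of 4. Aldh1l1, with 5 to 34 reads a library, is limited by depth, and the filter of 30 in 3 libraries left no value for it.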
